A study of Rattus norvegicus with 8 samples.

Results

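The miR-28 family of microRNAs (miRNAs) was measured in exosomes, vesicles shed by cells, of rat nucleus pulposus progenitor cells (NPPC) and nucleus pulposus cells (NPC). The nucleus pulposus is the soft centre of an intervertebral disc. There were 4 small RNA libraries of each kind, without any treatment in the labels. The members were the 6 mature arms of the hairpins miR-28, miR-151 and miR-708, taken by name from the rat rows of the deposited count table. Each member had 1 row, so the family made up 6 of 1512 rows and 6 of 415 rat mature names. The labels did not say how the progenitor cells were obtained, how the exosomes were purified or whether replicates were separate cultures or animals. The p-values therefore speak only of how far these libraries varied, and that variation may be technical.

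A miRNA hairpin is cut into a 5p and a 3p strand, of which mostly 1 is loaded into an Argonaute protein, where bases 2 to 8 of the strand, the seed, choose the messenger RNAs to be repressed. The hairpins of miR-28, miR-151 and miR-708 are known to have arisen from LINE-2 elements, old transposons whose inserted copies can fold back on themselves, so both arms of such a hairpin carry transposon sequence. In the RefSeq rat gene table (GRCr8) the miR-28 gene lies inside Lpp, which encodes a focal adhesion protein, miR-151 inside Ptk2, which encodes focal adhesion kinase, and miR-708 inside Tenm4, a teneurin gene. A further miRNA gene, Mir151b, covers the place of miR-151 in that table. The deposited table puts the hairpins on chromosome 11 from 79380523 to 79380608, minus strand (miR-28), chromosome 7 from 114485547 to 114485643, minus strand (miR-151), and chromosome 1 from 161221230 to 161221345, plus strand (miR-708). The build of these coordinates is not stated.

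By name, 4 of the 6 members, those of miR-28 and miR-708, were matched to mature sequences of RefSeq (GRCr8), which are shown 5′ to 3′ with the seed in capitals because they show which arms share one.
rno-miR-28-5p: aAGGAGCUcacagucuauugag
rno-miR-708-5p: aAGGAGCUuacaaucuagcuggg
rno-miR-28-3p: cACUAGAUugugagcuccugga
rno-miR-708-3p: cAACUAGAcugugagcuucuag
Both 5p arms had the seed AGGAGCU, which no other of 693 rat mature names in that table carried. Counted from base 1 at the 5′ end, miR-28-5p and miR-708-5p had the same base at 16 of 22 positions, and the first difference was C9U, with miR-28-5p given first, just after the seed. The 3p arms had seeds of their own, AACUAGA in miR-708-3p and ACUAGAU in miR-28-3p, and their longest shared stretch was ugugagcu. The arms of a hairpin pair with each other, and in miR-28 a stretch of 11 bases in a row of the 5p arm (aggagcucaca) was the exact reverse complement of a stretch of the 3p arm. In miR-708 the longest such stretch was 5 bases. The deposited miR-28-5p row counted a form 1 base shorter at its 3′ end, and the other 5 rows were given as identical to miRBase.

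The family was a small but well counted part of the exosome miRNAs. It held 4057, 4680, 5509 and 4810 counts in NPPC replicates 1 to 4 and 2705, 3483, 3003 and 2726 counts in NPC replicates 1 to 4. As a share of all counts this was 0.420% ± 0.0562 (SD, n = 4) in NPPC and 0.583% ± 0.167 (SD, n = 4) in NPC libraries, with 0.822% in NPC replicate 1 alone and 0.367% to 0.563% in the other libraries of both groups. Library totals ran from 819845 to 1416940 counts in NPPC and from 329011 to 681591 counts in NPC libraries, so every NPPC library was the deeper.

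Levels are given in CPM, the count divided by the library total and brought to a common scale, with TMM factors that set the bulk of the miRNAs equal between libraries. A count stands for a whole mature strand of 21 to 23 bases, so no scaling for length is needed between members. The most abundant member was miR-151-3p, at rank 55 among rat names by mean share of counts, followed by miR-151-5p at rank 60, miR-28-3p at rank 62, miR-28-5p at rank 84, miR-708-5p at rank 150 and miR-708-3p at rank 228. By mean CPM the order was miR-151-3p, miR-151-5p, miR-28-3p, miR-28-5p, miR-708-5p and miR-708-3p in NPPC exosomes, while miR-28-3p and miR-151-5p changed places in NPC exosomes. The ranges of these 2 members overlapped within each group, and so did those of miR-28-3p and miR-28-5p in NPPC exosomes, at 770.4 to 1183 CPM and 626 to 790.2 CPM. The other neighbours in the order had separate ranges, with miR-28-3p at 1184 to 1557 CPM just under miR-151-3p at 1578 to 1999.6 CPM in NPC exosomes.

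**Figure D1:**
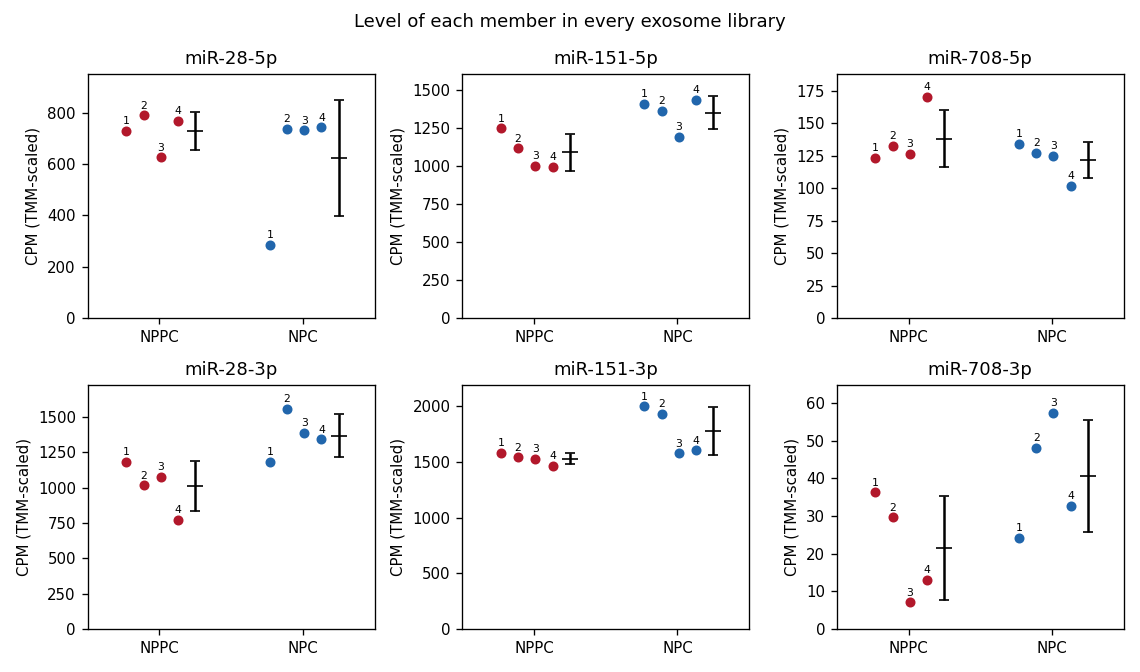
TMM-scaled CPM (vertical axis, from 0) of each member in NPPC (red) and NPC (blue) libraries; numbers mark replicates and bars show mean ± SD (n = 4). miR-28-3p, counted in its rat row alone, is the member whose groups do not overlap. NPC replicate 1 holds 285 CPM of miR-28-5p against 731 to 742 CPM in the other NPC libraries.

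The 5p arms with the shared seed come first. rno-miR-28-5p, whose human form is lost in B cell lymphomas, stood at 729, 790.2, 626 and 769 CPM in NPPC replicates 1 to 4 and at 285, 738, 731 and 742 CPM in NPC replicates 1 to 4. NPC replicate 1 lay apart, and the other 7 libraries of both groups overlapped. The means were 728 ± 72.8 CPM in NPPC and 624 ± 226 CPM in NPC exosomes (SD, n = 4 each), a log2 fold change of 0.22 ± 0.31 (SE). It did not pass edgeR's quasi-likelihood test with Benjamini-Hochberg adjustment over 390 names (adjusted p = 0.734). Without NPC replicate 1 the log2 fold change was -0.0062, with an NPC mean of 737 ± 5.77 CPM (SD, n = 3). These are bulk libraries, in which fewer vesicles that carry a miRNA and fewer copies per vesicle cannot be told apart.

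rno-miR-708-5p, which is induced with Tenm4 by the endoplasmic reticulum stress factor CHOP in mouse, did not separate the 2 kinds of exosome. Its levels were 123, 133, 127 and 170.4 CPM in NPPC and 134, 127, 125 and 102 CPM in NPC replicates 1 to 4. The highest value was in NPPC replicate 4 and the lowest in NPC replicate 4, and the remaining libraries overlapped. The log2 fold change was 0.18 ± 0.22 (SE; adjusted p = 0.708 by edgeR), and it turned to -0.11 with total count scaling. Leaving out 1 library gave 0.10 (without NPPC replicate 4) to 0.30 (without NPPC replicate 1). For each count of miR-708-5p there were 4.51 to 5.96 counts of its seed partner miR-28-5p in NPPC libraries and 5.79 to 7.26 in NPC replicates 2 to 4, with 2.13 in NPC replicate 1. On the log2 scale the ratio of miR-708-5p to miR-28-5p was -2.40 ± 0.20 in NPPC and -2.25 ± 0.79 in NPC libraries (SD, n = 4 each), a difference of -0.15 (exact permutation test, two-sided, p = 0.857). Without NPC replicate 1 the difference was 0.24, with an exact permutation p of 0.286.

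rno-miR-151-5p, whose human form promotes the migration of liver cancer cells, was measured at 1247, 1117, 999 and 993 CPM in NPPC replicates 1 to 4. The NPC libraries held 1409, 1362, 1192 and 1432 CPM. Only NPC replicate 3 fell within the NPPC range. The means were 1089 ± 119.97 CPM in NPPC and 1349 ± 109 CPM in NPC exosomes (SD, n = 4 each), and the log2 fold change of -0.31 ± 0.15 (SE) did not pass (adjusted p = 0.458 by edgeR). It kept its negative sign in all 24 alternative settings tried, between -0.58 and -0.15.

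Among the 3p arms, rno-miR-28-3p stood furthest apart between the groups relative to its error. This arm acts on other targets than miR-28-5p in human colorectal cancer cells. Its levels were 1183, 1018, 1078 and 770.4 CPM in NPPC and 1184, 1557, 1386 and 1342 CPM in NPC replicates 1 to 4. All 4 NPPC libraries lay below all 4 NPC libraries, although NPPC replicate 1 and NPC replicate 1 differed by about 1 CPM. As plain shares of all counts the groups were also separate, with 0.0676% to 0.119% in NPPC and 0.120% to 0.193% in NPC libraries. Both separations hold for the rat row alone. A row named after guinea pig that differs by a single base held 78 counts in NPPC replicate 1. With that row added, neither separation held. The means were 1012 ± 175 CPM in NPPC and 1367 ± 154 CPM in NPC exosomes (SD, n = 4 each). The log2 fold change was -0.43 ± 0.18 (SE), with an unadjusted p of 0.0438 and an adjusted p of 0.458 by edgeR, so it did not pass. Its sign was negative in all 24 alternatives, from -0.66 to -0.28. The adjusted p ranged from 0.0628, without either library numbered 1, to 0.810.

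rno-miR-151-3p, the other strand of its hairpin, was measured at 1584, 1542, 1529.7 and 1467 CPM in NPPC and at 1999.6, 1932, 1578 and 1604 CPM in NPC replicates 1 to 4. Its NPPC libraries were close together, and NPC replicate 3 overlapped them. The log2 fold change of -0.22 ± 0.15 (SE) did not pass (adjusted p = 0.564 by edgeR), and it turned to 0.068 with a correction for GC content.

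rno-miR-708-3p, the minor strand of its hairpin in all 8 libraries, was the rarest member and rested on 30, 30, 9 and 15 counts in NPPC and 13, 29, 34 and 17 counts in NPC replicates 1 to 4. That came to 36.3, 29.7, 7.13 and 13.0 CPM in NPPC and 24.2, 48.0, 57.4 and 32.8 CPM in NPC libraries. NPPC replicates 3 and 4 were lowest, and NPPC replicates 1 and 2 lay within the NPC range. The log2 fold change was -0.92 ± 0.59 (SE; adjusted p = 0.564 by edgeR), and it was -0.61 without NPPC replicate 3. Counts this low leave a wide error.

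All 6 members were abundant enough to be tested, and 0 of 6 passed. By the same edgeR test 1 of 390 names, or 0.256%, passed, which was miR-146a-5p, named here after its value was seen. It failed when the replicate numbers were used as a block or when any library other than NPC replicate 1 was left out. At an unadjusted p under 0.05 the family had 1 member, miR-28-3p, where 10.5% of all tested names had such a p in this test. Of those names 16 were higher and 25 lower in NPPC. The authors' scaling made this 23 against 20, upper-quartile factors 21 against 17 and library totals 10 against 33. Counted in its rat row alone, miR-28-3p was also the 1 of 6 whose groups did not overlap. This compares with 10.8% of all names, 6.15% with NPPC higher and 4.62% with NPPC lower. Of the 6 log2 fold changes 4 were negative and 2 positive, with a median of -0.26, beside a median of -0.038 over all tested names and 0.19 over tested rat names. With total count scaling the median of all names was -0.29, and the log2 fold changes of miR-28-3p, miR-151-5p and miR-151-3p were -0.66, -0.58 and -0.51.

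**Figure D2:**
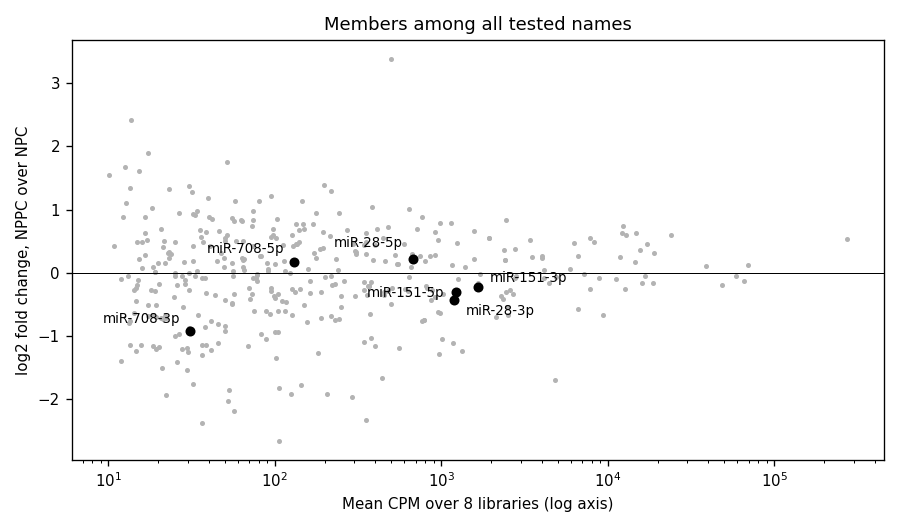
Log2 fold change of NPPC over NPC against mean CPM (log axis) for the 390 tested names (grey), with the 6 members in black. The members lie within the cloud of names of similar abundance, from -0.92 for miR-708-3p to 0.22 for miR-28-5p.

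The arms of a hairpin are made from the same precursor. Their ratio within a library does not depend on library scaling, because both counts are divided by the same library factor. Of miR-28 counts the 5p arm took 38.1%, 43.7%, 36.7% and 49.9% in NPPC replicates 1 to 4. In NPC replicates 1 to 4 it took 19.4%, 32.2%, 34.5% and 35.6%. The 3p arm was thus the larger one, except that the arms could not be ordered in NPPC replicate 4, at 884 (5p) and 886 (3p) counts, and the 5p share of each NPPC library was above that of each NPC library. The gap between NPPC replicate 3 and NPC replicate 4 was within counting error, with 95% Wilson intervals of 34.7% to 38.8% and 32.8% to 38.5%. Wilson intervals cover counting error only, since reads without molecular identifiers are not independent molecules.

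The mean 5p share of miR-28 was 42.1% ± 6.02 in NPPC and 30.4% ± 7.49 in NPC exosomes (SD, n = 4 each). On the log2 scale the 5p to 3p ratio was higher in NPPC by 0.76 ± 0.35 (SE), which did not pass limma's test with Benjamini-Hochberg adjustment over 71 rat hairpins (adjusted p = 0.499, unadjusted p = 0.0616). A two-sided exact permutation test gave p = 0.0286, which 70 arrangements cannot go below, and 0.338 when adjusted over the 71 hairpins. That test shuffles all libraries freely. With the replicate numbers as pairs, the 5p to 3p ratio was higher in NPPC in 4 of 4 pairs and the exact p over pairs was 0.125, the smallest that 16 sign arrangements allow. Without NPC replicate 1 the log2 difference was 0.49 ± 0.24 (SE), against an NPC share of 34.1% ± 1.77 (SD, n = 3), and with the GC correction it was 0.38 ± 0.25 (SE).

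In miR-151 the 3p arm was the major one too, in every library. The 5p arm took 44.0%, 42.0%, 39.5% and 40.4% in NPPC and 41.3%, 41.4%, 43.0% and 47.2% in NPC replicates 1 to 4, and the groups overlapped. The log2 difference of -0.10 ± 0.22 (SE) did not pass (limma adjusted p = 0.7498). It lay between -0.15, without NPPC replicate 1, and -0.026, without NPC replicate 4, when 1 library was left out.

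miR-708 had the opposite bias, with the 5p arm as the major one in all 8 libraries. Its share was 77.3%, 81.7%, 94.7% and 92.9% in NPPC and 84.7%, 72.6%, 68.5% and 75.7% in NPC replicates 1 to 4. NPC replicate 1 was above NPPC replicates 1 and 2, so the groups overlapped. The log2 ratio was higher in NPPC by 1.27 ± 0.60 (SE; limma adjusted p = 0.499), on 70 to 211 counts of the hairpin per library. Without NPPC replicate 3, which held 9 counts of the 3p arm, the difference was 0.88, the lowest with 1 library left out. The highest was 1.66, without NPPC replicate 1, and without NPC replicate 1 it was 1.54.

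**Figure D3:**
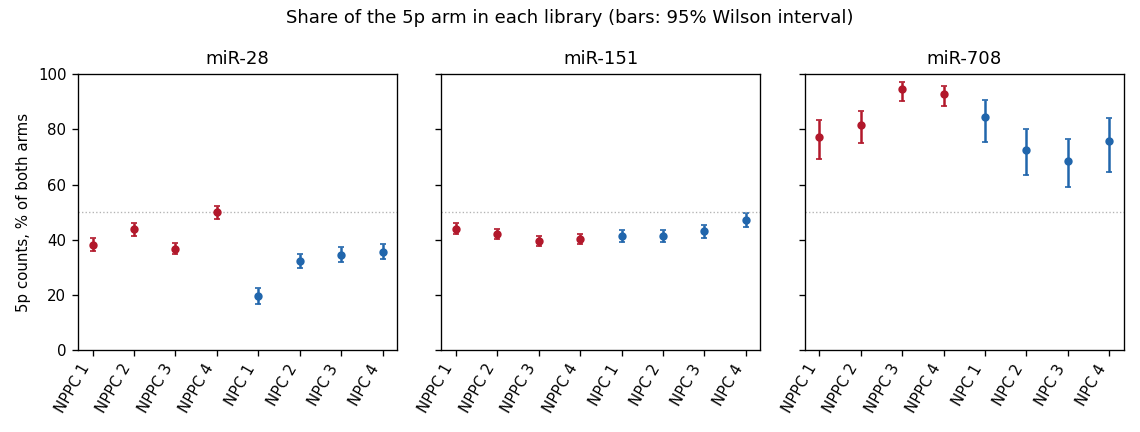
Counts of the 5p arm as a percentage of both arms of each hairpin (vertical axis, 0 to 100%) in NPPC (red) and NPC (blue) libraries, with 95% Wilson intervals. The 3p arm holds the larger share in miR-28, apart from the near-equal 49.9% in NPPC replicate 4, and in miR-151, and the 5p arm in miR-708. NPC replicate 1 is lowest for miR-28 at 19.4%.

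Over all 71 hairpins 0 passed by limma (0% called), with 7 at an unadjusted p under 0.05 (9.86%). The family had 0 of 3 in both respects. Its 1 of 3 hairpins without overlap between groups, miR-28, compares with 8.45% of all hairpins, and 7.04% with NPPC higher. The median log2 difference over all hairpins was 0.20, and 17 hairpins had a larger positive difference than miR-28. Over the 71 hairpins the difference went with base composition. Its Spearman correlation with the GC percent of the 5p arm minus that of the 3p arm was -0.536. That GC difference was -7.14 points in miR-28, -4.76 in miR-151 and 2.37 in miR-708. The part of base composition in the family's differences was not tested.

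**Figure D4:**
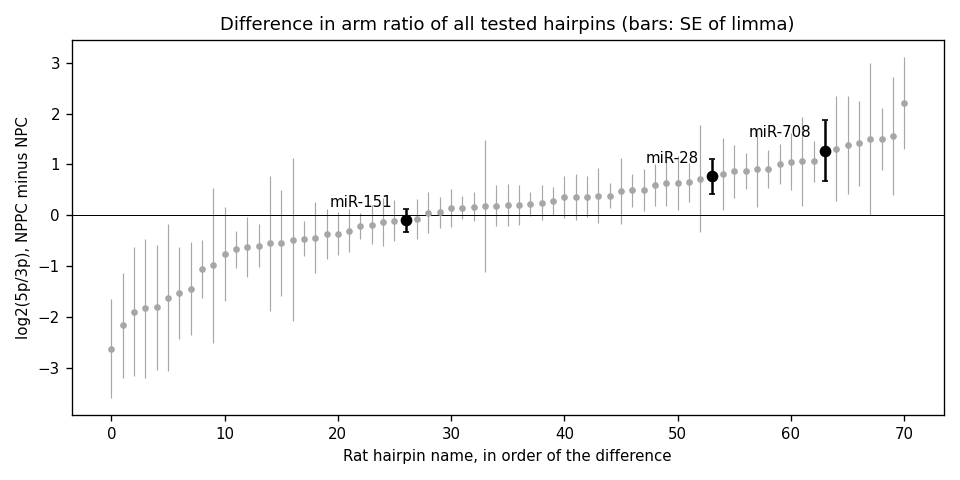
Difference in log2(5p/3p) between NPPC and NPC libraries for the 71 tested rat hairpins in order of size, with the SE of limma as bars. The 3 hairpins of the family are in black, at -0.10 (miR-151), 0.76 (miR-28) and 1.27 (miR-708).

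How counts followed base composition set NPC replicate 1 apart. Over 278 rat names GC percent and the name's deviation from its own 8-library mean had a Spearman correlation of 0.855 there and between -0.624 and -0.0469 in the other 7 libraries, as a description of names that are not independent. Deviations of a name balance out over the 8 libraries. The negative values are thus partly set by NPC replicate 1 and are not trends of each library alone. Its TMM factor was 1.64, with the others between 0.871 and 1.01. The members ran from 42.9% GC in miR-28-5p to 57.1% GC in miR-151-3p. Relative to the mean of the other 3 NPC libraries, NPC replicate 1 held 0.386 times the CPM of miR-28-5p and 1.17 times that of miR-151-3p. In between lay miR-708-3p at 0.526 times (45.5% GC), miR-28-3p at 0.829 times (50% GC), miR-151-5p at 1.06 times (52.4% GC) and miR-708-5p at 1.13 times (47.8% GC). After a GC correction the log2 fold change of miR-28-5p was -0.19 ± 0.17 (SE), against 0.22 without it, and those of miR-28-3p, miR-151-5p and miR-708-3p were -0.35, -0.15 and -1.12.

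**Figure D5:**
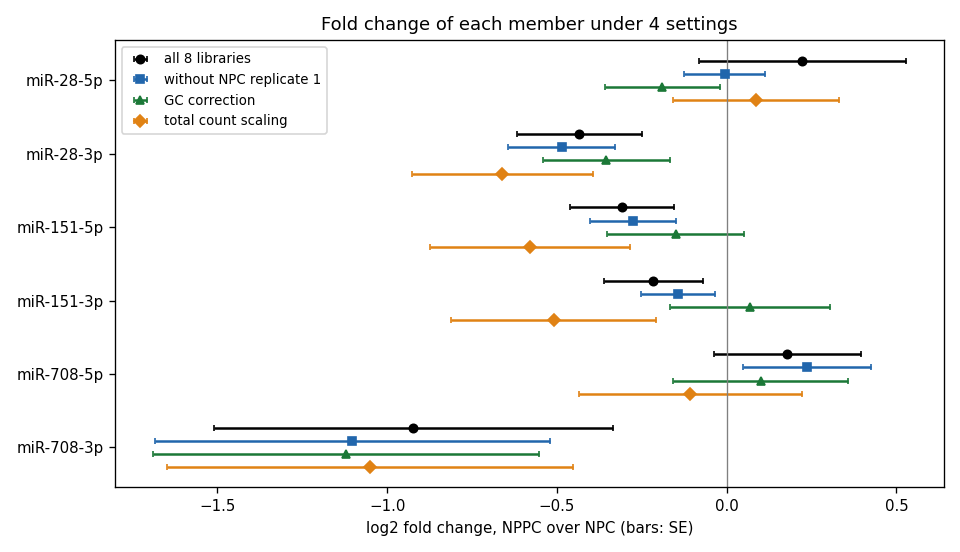
Log2 fold change of NPPC over NPC for each member with its SE, in all 8 libraries, without NPC replicate 1, with the GC correction and with total count scaling. miR-28-3p, miR-151-5p and miR-708-3p are below 0 under all 4 settings, while miR-28-5p, miR-151-3p and miR-708-5p cross 0.

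The level of miR-28-5p over the 8 libraries was most like those of miR-455-5p, miR-872-5p and miR-450a-5p, with Pearson r of 0.986, 0.978 and 0.977 among 163 rat names of at least 100 CPM. Without NPC replicate 1, the library with the low value, these r were 0.672, 0.365 and 0.108. miR-28-3p was most like miR-99b-3p, miR-185-5p and miR-224-5p (r of 0.825, 0.820 and 0.772), and miR-151-5p most like miR-3473, miR-341 and miR-450b-3p (0.940, 0.915 and 0.903). For miR-151-3p they were miR-125b-2-3p, miR-99b-5p and miR-140-3p (0.944, 0.904 and 0.891), for miR-708-5p miR-31a-5p, miR-27a-3p and miR-34a-5p (0.755, 0.731 and 0.677), and for miR-708-3p miR-382-5p, miR-185-5p and miR-99a-5p (0.799, 0.776 and 0.753). These points share library depth and base composition, and the names were picked as the highest of many. Within the family the arms of miR-151 went together (r = 0.740, and 0.681 without NPC replicate 1), while those of miR-28 did not (r = -0.055, and -0.14 without it). For the arms of miR-708 r was -0.41 with and without it, with only 9 to 34 counts of miR-708-3p per library. miR-28-3p went more with miR-151-5p of another hairpin (r = 0.748, and 0.815 without NPC replicate 1) and against miR-708-5p (r = -0.749, and -0.757 without it). All these r pool both groups over few libraries and were not tested, so they also carry the group differences given above.

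Other miRNAs reported to come from LINE-2 elements in human were looked up under 7 names, miR-95, miR-325, miR-374, miR-421, miR-493, miR-545 and miR-616. The table held 7 rat mature names of these, of which 5 were abundant enough to be tested and 0 passed by edgeR, with 0 at an unadjusted p under 0.05. Their log2 fold changes were 4 times positive and 1 time negative, with a median of 0.69. All tested names had a median of -0.038 with 48.7% positive, and tested rat names a median of 0.19. Without NPC replicate 1 the LINE-2 names were 3 times positive and 2 times negative, with a median of 0.34. All tested names then had a median of -0.051 with 45.9% positive. miR-374-5p averaged 200.8 ± 76.6 CPM in NPPC and 91.0 ± 67.4 CPM in NPC exosomes (SD, n = 4 each), a log2 fold change of 1.14 ± 0.94 (SE; adjusted p = 0.596 by edgeR). NPC replicate 1 had 0 counts of it, and without that library the NPC mean was 121 ± 35.8 CPM (SD, n = 3) and the log2 fold change 0.74 ± 0.35 (SE; edgeR adjusted p = 0.280). miR-421-3p had 115 ± 20.6 CPM in NPPC and 114 ± 19.3 CPM in NPC exosomes (SD, n = 4 each), a log2 fold change of 0.023 (adjusted p = 0.964 by edgeR). The log2 fold changes of miR-493-5p, miR-493-3p and miR-374-3p were 0.69, -0.084 and 1.35, and without NPC replicate 1 they were 0.34, -0.13 and 0.96. Both arms of miR-325 were under the filter, at 0 to 13.0 CPM (3p) and 0 to 3.96 CPM (5p) in NPPC libraries and 0 in the NPC libraries.

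No list specific to the nucleus pulposus was used, and the cells were checked with miRNAs of broader cell types. Mesenchymal miRNAs (miR-199a, miR-214, miR-143 and miR-145; 5 of 5 names in the table) summed to 159282 to 177947 CPM of the plain library totals in NPPC and 187159 to 232490 in NPC libraries. Markers of other cells were lower by far and overlapped between the groups. Those of leukocytes (3 of 4 rat names, without miR-223-3p) summed to 71.7 to 159 in NPPC and 30.4 to 209 in NPC libraries. With a row that carries the mouse name of miR-223-3p they summed to 107 to 215 in NPPC and 30.4 to 332 in NPC libraries. Red cell markers (3 of 3) reached 160.2 to 1294 in NPPC and 304 to 757 in NPC libraries, and endothelial markers (2 of 2) 411 to 630.0 in NPPC and 443 to 739 in NPC libraries. The liver marker miR-122-5p stood at 9.92 to 20.2 in NPPC and 15.2 to 27.9 in NPC libraries. Striated muscle markers (3 of 3) ran from 22.9 to 58.5 in NPPC and from 0 to 42.1 in NPC libraries, and neural markers (2 of 2) from 25.6 to 72.7 in NPPC and from 0 to 85.6 in NPC libraries. Epithelial markers (5 of 6, without miR-141-3p) summed to 81.7 to 164 in NPPC and 78.1 to 125 in NPC libraries. Their part in the members' levels was not tested.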

How the data were processed

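Estimated counts were deposited for each miRNA row. Among nonzero values 82.3% were whole (tolerance 1e-09), and all member values were whole. They also deposited a scaled signal, the count times 1 factor per library within 0.00139%, which was used as an alternative scaling. The submitters' processing notes name CASAVA 1.8, and libraries were made with a TruSeq small RNA kit per the labels' protocols. No source used here gives the aligner, miRBase version or genome build.

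Titles gave each library's group and replicate number. Rows were summed per name (1273 names), rounded and tested with edgeR 4.0.16 in R 4.3.3 (TMM, filterByExpr, two-sided quasi-likelihood test, group as the only term, Benjamini-Hochberg over 390 names). SE is the log2 fold change over the root of F. Arm ratios, log2 with a pseudocount of 0.5, were tested with limma 3.58.1 with a variance trend over rat hairpins with a mean of at least 10 counts in each arm. Correlations used log2 CPM with a prior count of 2. The GC correction was a loess curve of each library (span 0.75) as an offset. DESeq2 1.42.0, Python 3.11.15, scipy 1.17.1 and matplotlib 3.10.9 were also used. The edgeR and arm ratio steps were tested on simulated data.

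Depth ranged from 329011 to 1416940 counts. Deviations from the group means correlated between same-numbered libraries at 0.565, 0.116, 0.366 and 0.243 for replicates 1 to 4, which is weak for replicate 2. A fit with the numbers as a block was therefore run beside the tests above, which have no block. The labels do not say that the numbers pair libraries, and the best matching NPC library had another number for NPPC replicates 2 and 4 (NPC replicates 4 and 3). The members, lists and tests were chosen with earlier results of these data known. Text names the 6 members, the 3 names most like each, and the LINE-2 and marker lists. Rows named after other species were not counted as members.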

Additional observations from a re-analysis of the deposited data

Results flagged for a closer look

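rno-miR-28-5p stood at 285 CPM in NPC replicate 1 and at 731 to 742 CPM in the other NPC libraries. The gap made up 0.975 of the range of the NPC values. It was the single case past the 95% limit for a distant library among 22 sets of 4 values looked at. The nominal rate of such a limit is about 1 in 20 sets. These sets share members and libraries, so their actual rate is not known. That library's GC trend is given in the report.

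A row named after guinea pig, cpo-miR-28-3p, is no member by name but differs from the rat miR-28-3p row by a single base, T11G, counted from the 5′ end with the rat base first. It held 337 counts over the NPPC libraries and 0 over the NPC libraries, and was singled out after its values were seen. The counts were 78, 8, 0 and 251 in NPPC replicates 1 to 4. As a share of both rows this was 7.38%, 0.771%, 0% and 22.1% in NPPC replicates 1 to 4, where the 0 of NPPC replicate 3 allows up to 0.221%. The NPC libraries, with 0 counts each, allow up to 0.319% to 0.472%. The row did not pass the abundance filter. Without a filter edgeR called it with an adjusted p of 7.27e-06, as 1 of 8 names called among 1273. Because the row was picked for its counts in NPPC libraries alone, that p is no separate support for a group difference. NPPC libraries thus ranged from 0% to 22.1%, and the source of these counts was not tested. With the row added to miR-28-3p, the 5p share of miR-28 in NPPC replicate 4 was 43.7%, against 49.9% without it. The groups still did not overlap in that share, with 36.3% as the lowest NPPC value and 35.6% as the highest NPC value. The level of miR-28-3p itself no longer separated the groups with the row added. NPPC replicate 1 rose from 979 to 1057 counts, and at 979 counts its 1183 CPM lay just under the 1184 CPM of NPC replicate 1. The log2 arm ratio difference was then 0.64 ± 0.33 (SE; limma adjusted p = 0.536), and the log2 fold change of miR-28-3p was -0.32 ± 0.16 (SE; edgeR adjusted p = 0.460).

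A second row, named after human miR-151a-3p with 1 base substituted, held 5 counts in NPC replicate 4 and 0 in the other 7 libraries.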

How the results depend on the processing

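The number of names called (1) became 8 without a filter, 6 with the DESeq2 Wald test, 0 with each table row on its own, 42 without either library numbered 1 and, added after the data were seen, 2 with the replicate block and a GC correction together. With the replicate block alone it was 0. With 1 library left out it ran from 0 to 1, and was 1 only without NPC replicate 1. The block changed no member's call. Hairpin arm ratios called (0 by adjusted p) became 1 without either library numbered 1 (added), and stayed at 0 with a library left out. Exact permutation tests over free arrangements gave 6 at an unadjusted p under 0.05, beside 7 by limma. Over pairs, where p cannot go below 0.125, they gave 0. The smallest exact permutation p over free arrangements was 0.338 when adjusted over the 71 hairpins, so none passed. No member or hairpin of the family passed by adjusted p in the alternatives that gave one; DESeq2 gave none for miR-708-3p. The sign turned for miR-28-5p without NPC replicate 1 (-0.0062, with a range up to 0.38 without other libraries), with the GC correction (-0.19) and with block and GC correction together (-0.20), for miR-151-3p with the GC correction (0.068) and with both together (0.067), for miR-708-5p with total count scaling (-0.11) and for miR-421-3p without NPC replicate 1 (-0.064). The log2 ratio of miR-708-5p to miR-28-5p differed by 0.12 with the GC correction, and with a library left out by -0.35 to 0.24. The cause was not tested. The other members and the 3 arm ratio differences kept their sign in all alternatives run. miR-708 was not tested at a minimum of 50 counts per arm. Low counts limit miR-708-3p most.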
